A study of Mus musculus with 6 samples.

Results

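The microRNA (miRNA) miR-802 is described here through the 2 mature RNAs cut from its hairpin, mmu-miR-802-5p and mmu-miR-802-3p, which are 2 of the 1542 entries in a table of small-RNA read counts from mouse kidney. They were chosen by name, and both passed the filter on low counts, with 449 other entries. Kidneys came from female mice aged 17 weeks. The MRL/lpr group (MRL/MpJ-Fas<lpr>/J; 3 libraries) carries the lpr mutation of the death receptor gene Fas on the MRL background and develops a spontaneous lupus-like disease with nephritis, and the wild-type C57BL/6 group (3 libraries) was the control. Strain background, the lpr mutation and disease cannot be told apart in this design, and the labels do not name the mouse behind each library, so the tests measure differences against the spread between libraries, which may be partly technical.

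A miRNA hairpin is cut by Drosha and Dicer into a short duplex, and 1 strand, from the 5′ (5p) or the 3′ (3p) side, is usually kept in Argonaute, where bases 2 to 8, the seed, pair with messenger RNAs and repress them. miR-802 is best known from liver, where it was found raised in obese mice. Human miR-802 lies on chromosome 21 and is among the miRNAs studied in trisomy of that chromosome.

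The hairpin gene Mir802 lies at chr16:93369720-93369816 on the plus strand (GRCm38.p6). It overlaps no other gene of GENCODE M21. The nearest gene before it, the long non-coding RNA gene 1810044K17Rik, ends 690 bases away on the same strand, and the nearest protein-coding genes are Setd4, 213.6 kb after it, and Runx1, 543.6 kb before it. The RefSeq hairpin of 97 bases is shown because both measured RNAs are parts of it. Capitals mark the 5p arm (bases 18 to 39) and then the 3p arm (bases 56 to 77).
Mir802: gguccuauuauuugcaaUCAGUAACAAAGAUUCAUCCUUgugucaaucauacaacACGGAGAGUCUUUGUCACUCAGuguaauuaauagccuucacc

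The mature arms, each of 22 bases, are shown with the seed in capitals because the seed defines a miRNA family.
miR-802-5p: uCAGUAACaaagauucauccuu
miR-802-3p: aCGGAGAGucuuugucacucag

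Neither seed occurs at bases 2 to 8 of any other mature mouse miRNA in the RefSeq table of 1679 names, so miR-802 has no seed family there. The longest stretch that either arm shares with another mature miRNA is 8 bases, and over 141767 GENCODE M21 transcripts searched on both strands the full sequence of each arm was found in Mir802 alone. In the predicted fold of the hairpin (RNAfold, -30.8 kcal/mol) 16 base pairs join the arms. The 5p arm has 7 G or C bases and the 3p arm has 11.

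Both arms were higher in MRL/lpr kidneys. The 5p arm, mmu-miR-802-5p, had 1311, 880 and 1207 reads in the MRL/lpr libraries (replicates 1, 2 and 3), against 352, 206 and 389 in the C57BL/6 libraries. The 3p arm, mmu-miR-802-3p, had 396, 232 and 306 reads in MRL/lpr, against 112, 68 and 121 in C57BL/6. Every MRL/lpr library lay above every C57BL/6 library for both arms, and C57BL/6 replicate 2 was the lowest of all for both. Library totals ran from 5259528 to 6773829 counts and overlapped between the strains (two-sided exact permutation p = 0.6; with 3 libraries a strain this test cannot give less than 0.1).

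In CPM, the usual per-library unit in which read counts are scaled to a common total, here by TMM, mmu-miR-802-5p stood at 185.1, 170.8 and 199.8 CPM in MRL/lpr and at 72.0, 33.1 and 60.6 CPM in C57BL/6. The means were 185.2 ± 14.5 CPM in MRL/lpr and 55.2 ± 20.01 CPM in C57BL/6 (SD, n = 3 each). It was 3.35-fold higher in MRL/lpr, with a log2 fold change of 1.75 ± 0.29 (SE) and a 95% interval of 1.09 to 2.40 (edgeR's quasi-likelihood F test, adjusted p = 0.00793 by Benjamini-Hochberg). The lowest MRL/lpr value was 2.37 times the highest C57BL/6 value.

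mmu-miR-802-3p stood at 55.9, 45.03 and 50.7 CPM in MRL/lpr and at 22.9, 10.9 and 18.9 CPM in C57BL/6. Its means were 50.5 ± 5.44 CPM in MRL/lpr and 17.6 ± 6.10 CPM in C57BL/6 (SD, n = 3 each). The log2 fold change was 1.53 ± 0.30 (SE), with a 95% interval of 0.87 to 2.19 (edgeR adjusted p = 0.0154), which is 2.88-fold. With the reads of both arms added into 1 entry the log2 fold change was 1.69 (edgeR adjusted p = 0.00797).

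**Figure D1:**
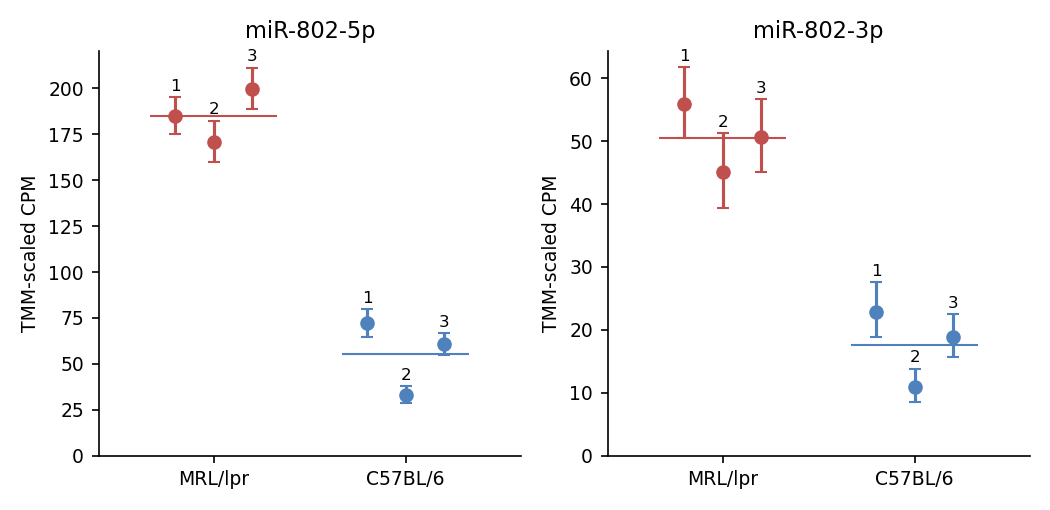
TMM-scaled CPM of miR-802-5p (left) and miR-802-3p (right) in each library, with replicate numbers, 95% Poisson intervals that cover counting error only, and group means as lines. The MRL/lpr libraries sit at 170.8 to 199.8 CPM for 5p, above the C57BL/6 libraries at 33.1 to 72.0 CPM, and likewise for 3p.

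These 2 calls are read against the whole table, in which 6.21% of the 451 tested entries passed the threshold of 0.05 (19 higher, or 4.21%, and 9 lower). All MRL/lpr values lay above all C57BL/6 values for 14% of the entries tested, and groups did not overlap, in either direction, for 28.8%. By p, miR-802-5p ranked 7 and miR-802-3p ranked 12 of the 451, and by fold change they ranked 7 and 10 among the 19 higher entries. With library size alone as the scaling, the split of calls was 24 higher and 6 lower, the median log2 fold change of all entries was 0.12 instead of -0.027, and miR-802-5p had a log2 fold change of 1.92 and miR-802-3p one of 1.70.

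**Figure D2:**
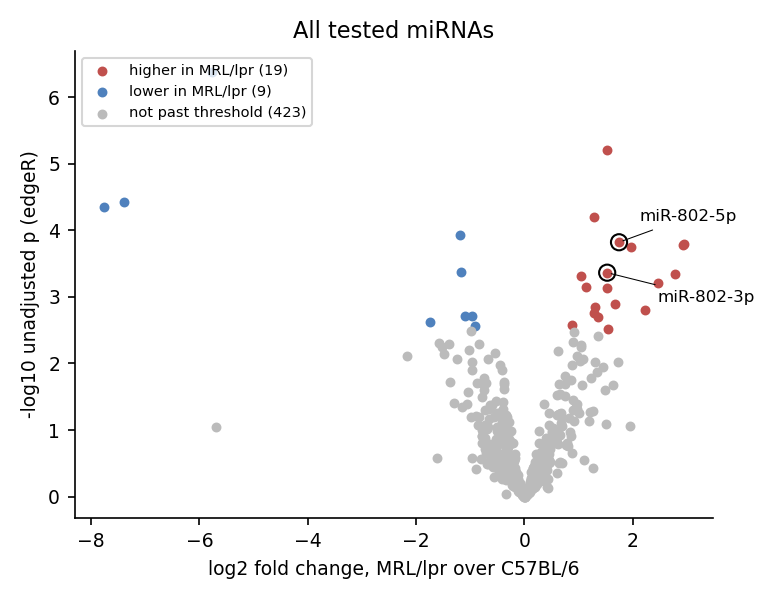
Log2 fold change (MRL/lpr over C57BL/6) against -log10 of the unadjusted edgeR p for the 451 tested entries; circles mark the arms of miR-802. Both lie among the 19 higher entries, at log2 fold changes of 1.75 and 1.53.

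With a single library left out, 3 of the 12 tests of the arms missed the threshold. Without MRL/lpr replicate 3 the log2 fold changes were 1.72 for 5p and 1.56 for 3p, and neither passed (edgeR adjusted p = 0.0643 and 0.0748), while the whole table then held 5 calls. Without C57BL/6 replicate 3 miR-802-3p also missed the threshold (log2 fold change 1.54, edgeR adjusted p = 0.0759).

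Both arms of miR-802 ranked in the upper part of the miRNAs detected in these kidneys. Among the named miRNAs with at least 1 read, which numbered 725 to 784 in the MRL/lpr libraries and 724 to 784 in the C57BL/6 libraries, miR-802-5p ranked 119 to 130 in MRL/lpr and 160 to 197 in C57BL/6. The 3p arm ranked 173 to 183 in MRL/lpr and 212 to 268 in C57BL/6. CPM values are not corrected for how well an end ligates, so ranks between miRNAs are approximate.

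The spread between libraries was wider in C57BL/6, where replicate 2 was the lowest library, and the difference in spread was not tested. In MRL/lpr the coefficient of variation was 7.83% for 5p and 10.8% for 3p, where counting alone gives 2.97% and 5.67%. In C57BL/6 it was 36.2% for 5p and 34.7% for 3p, where counting gives 5.63% and 9.98%. The highest MRL/lpr library had 1.17 times the 5p CPM of the lowest, and the highest C57BL/6 library 2.18 times. Between C57BL/6 replicates 1 and 3 alone the span was 1.19 times for 5p and 1.22 times for 3p. The MRL/lpr spans, over all 3 libraries, were 1.17 and 1.24 times. A span over fewer libraries tends to be smaller, and replicate 2 was left out because it was the lowest. These spans therefore do not show that the strains vary alike. Over the 6 libraries log2 CPM of the arms had a Pearson r of 0.996; the arms share a precursor and a library, so this is a description.

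The 5p arm had more reads than the 3p arm in every library, without correction for how well each end ligates. It made up 76.8%, 79.1% and 79.8% of miR-802 reads in MRL/lpr and 75.9%, 75.2% and 76.3% in C57BL/6. The Wilson 95% intervals ran from 74.7 to 78.7%, 76.7 to 81.4% and 77.7 to 81.7% in MRL/lpr, and from 71.8 to 79.5%, 69.7 to 79.9% and 72.4 to 79.8% in C57BL/6, so the intervals of the strains overlapped. In reads, 5p exceeded 3p by 3.68 ± 0.331 times in MRL/lpr and by 3.13 ± 0.0935 times in C57BL/6 (SD, n = 3 each). The mean shares were 78.6% ± 1.57 in MRL/lpr and 75.8% ± 0.551 in C57BL/6 (SD, n = 3 each; exact two-sided permutation p = 0.1, the smallest possible).

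Across the 105 hairpins with both arms tested, the arm balance of miR-802, log2 of 5p over 3p CPM after adding 1, was higher by 0.27 ± 0.19 (SE) in MRL/lpr. The 95% interval of this difference ran from -0.18 to 0.72 and it did not pass (limma adjusted p = 0.645), which leaves shifts of up to 0.72 on the log2 scale within the interval. The SE and interval are limma's, which borrow spread from all the hairpins. The SD of this balance for miR-802 alone was 0.130 in MRL/lpr and 0.0626 in C57BL/6. Groups did not overlap for this balance, as for 17.1% of the hairpins, and 0% of the hairpins passed (0 of 105 with limma, 14 at an unadjusted p under 0.05, and 1 with an edgeR interaction test). Over all 6 libraries the balance of miR-802 spanned 0.44 on the log2 scale, the 6th smallest span of the 105, whose median span was 0.86.

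**Figure D3:**
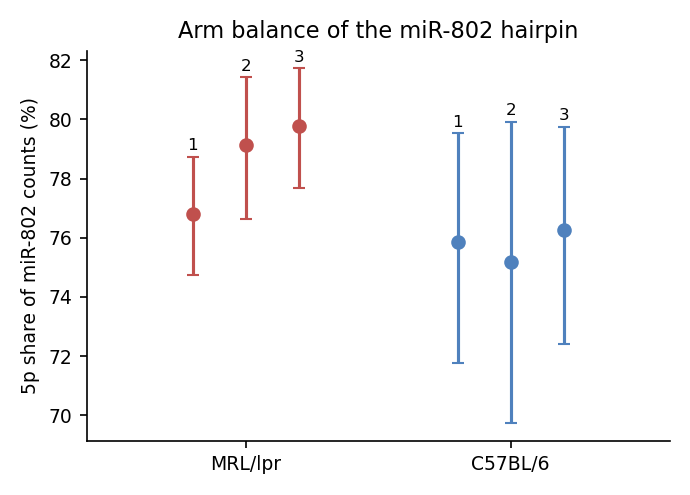
Share of miR-802 reads on the 5p arm in each library, in percent, with replicate numbers and Wilson 95% intervals. The axis does not start at 0. Shares run from 76.8 to 79.8% in MRL/lpr and from 75.2 to 76.3% in C57BL/6, with overlapping intervals.

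The rise of miR-802 was next set against other miRNAs of kidney epithelium, a list of 10 that covers the tubular miR-192, miR-194, miR-215, miR-204 and miR-30a and the epithelial miR-200 family (miR-200a, 200b, 200c, 141 and 429). Of the 9 members tested, miR-204-5p was higher and none was lower, against 4.21% higher in the whole table. miR-215-5p had 8 reads in all libraries together and was not tested. The median log2 fold change of the 9 was 0.11, beside -0.027 over all entries tested. The other 8 members had log2 fold changes between -0.19 for miR-200b-3p and 0.63 for miR-141-3p (edgeR adjusted p = 0.133 for miR-141-3p).

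Within a library, miR-802-5p counts can be divided by the counts of this list, which needs no scaling between libraries. Per 1000 reads of the list, miR-802-5p had 1.65, 1.38 and 1.75 reads in MRL/lpr and 0.616, 0.450 and 0.527 reads in C57BL/6. The means were 1.59 ± 0.190 in MRL/lpr and 0.531 ± 0.0834 in C57BL/6 (SD, n = 3 each), without overlap, and the log2 difference was 1.59 (exact two-sided permutation p = 0.1, the smallest possible). In an edgeR fit scaled to this list, which lowered the median log2 fold change of all entries to -0.28, miR-802-5p still passed with a log2 fold change of 1.59 (adjusted p = 0.0149) and so did miR-802-3p with 1.36 (adjusted p = 0.0302). In whole kidney, more cells that make miR-802 and more miR-802 per cell cannot be told apart.

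For single members, the ratio of miR-802-5p to a kidney miRNA was higher in every MRL/lpr library than in any C57BL/6 library for 8 of the 9 tested members. The same held for 83.1% of the 450 other tested entries taken as the denominator, so the count of 8 is near the background and shows nothing particular to these members. The exception was miR-204-5p, which is made from an intron of Trpm3. Per 1000 miR-204-5p reads, miR-802-5p had 14.4, 10.02 and 13.4 reads in MRL/lpr and 12.3, 7.74 and 11.1 in C57BL/6, so these groups overlapped and the ratio of the means was 1.21. For the other 8 the ratio of the means ran from 2.19 for miR-141-3p to 3.93 for miR-200b-3p.

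**Figure D4:**
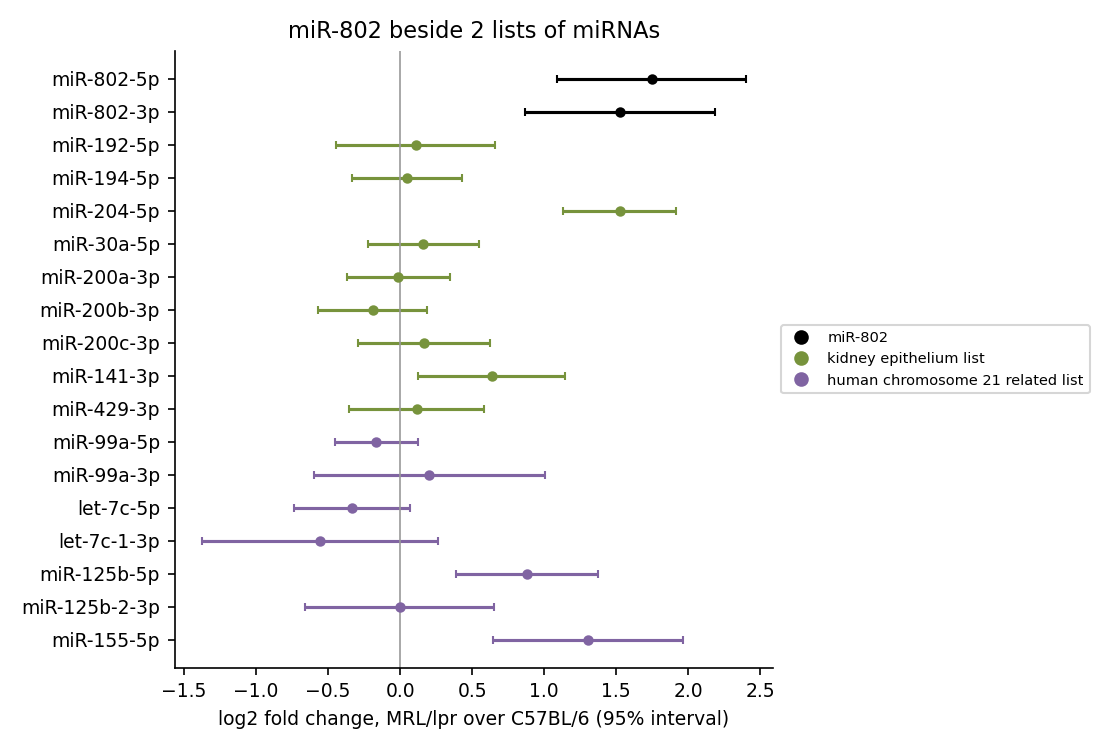
Log2 fold changes (MRL/lpr over C57BL/6, edgeR) with 95% intervals for the arms of miR-802, the tested members of the kidney epithelium list and those of the list related to human chromosome 21. The arms of miR-802, miR-204-5p, miR-125b-5p and miR-155-5p passed the threshold.

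Markers of other tissues and cells were measured in the same libraries. The liver miRNA miR-122 was near absent: both arms together had 3.25, 8.73 and 2.65 CPM in MRL/lpr and 4.91, 7.55 and 12.3 CPM in C57BL/6, below miR-802-5p in each library, and miR-122-5p did not pass (log2 fold change -0.70 ± 0.54 SE, edgeR adjusted p = 0.520). Of 6 names of the pancreatic acinar miRNAs miR-216a, miR-216b and miR-217, 2 are in the table, with 6 reads in all libraries together. Leukocyte miRNAs (6 names: both arms of miR-142a, miR-150-5p, miR-155-5p, miR-146a-5p and miR-342-3p) summed to 10126, 9019 and 10752 CPM in MRL/lpr and to 6003, 27897 and 5818 CPM in C57BL/6. Most of each sum was miR-146a-5p, with 8393, 7314 and 8380 CPM in MRL/lpr and 5011, 25574 and 4765 CPM in C57BL/6. In C57BL/6 replicate 2, miR-146a-5p, miR-150-5p and miR-342-3p lay above every MRL/lpr library. There miR-142a-3p and miR-155-5p lay below every MRL/lpr library, and miR-142a-5p lay within their range. Myeloid miRNAs (4 names, from miR-223 and miR-511) summed to 440.3, 409.1 and 377.8 CPM in MRL/lpr and to 249.2, 1200.3 and 254.9 CPM in C57BL/6. The median log2 fold change was 0.72 over the 6 leukocyte members, of which 1 passed (miR-155-5p, higher), and -0.70 over the 3 myeloid members tested, of which none passed, beside 6.21% of all tested entries in either direction.

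C57BL/6 replicate 2, the library with the least miR-802, stood apart in these markers. Compared with C57BL/6 replicates 1 and 3, it had more of each of the 6 leukocyte and 3 myeloid miRNAs tested, and 7 of the 9 kidney epithelium members and all 3 erythroid miRNAs tested (miR-451a, miR-144-3p, miR-486a-5p) were lower there. In that library miR-144-3p and miR-486a-5p rested on 3 reads each. miR-486b-5p, which is not in the list, had 2, 13 and 38 reads in C57BL/6 replicates 1, 2 and 3. C57BL/6 replicate 2 also had more of 4 of the 5 mesenchymal members given below. Over the whole table it differed from replicates 1 and 3 by a chi-square per degree of freedom of 543.5 and 726.1, against 174.5 between those. The share of all entries with this order was not counted. Erythroid miRNAs summed to 3491, 3477 and 4306 CPM in MRL/lpr and to 2841, 594.4 and 3496 CPM in C57BL/6. The part of these markers in the level of miR-802 was not tested. Without that library miR-802-5p had a log2 fold change of 1.51 (edgeR adjusted p = 0.00431) and miR-802-3p one of 1.30 (edgeR adjusted p = 0.00520).

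Endothelial miRNAs (both arms of miR-126a) summed to 59117, 73074 and 58064 CPM in MRL/lpr and to 82924, 69362 and 78863 CPM in C57BL/6, and no tested member passed. Of the 5 mesenchymal names (miR-199a, miR-214, miR-143 and miR-145a) none passed either; their sums were 30053, 34069 and 27034 CPM in MRL/lpr and 36890, 43708 and 30339 CPM in C57BL/6. The median log2 fold change was -0.19 over the endothelial and -0.17 over the mesenchymal members tested. The mesenchymal sums include miR-199a-3p, whose reads cannot be told apart from those of miR-199b-3p, which has the same mature sequence and is not in the list. In C57BL/6 replicate 3 most of these reads stand under miR-199b-3p (15070 reads, against 242 under miR-199a-3p), while in the other libraries 6 to 228 do. With miR-199b-3p added, the sums were 30081, 34086 and 27035 CPM in MRL/lpr and 36927, 43745 and 32687 CPM in C57BL/6.

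The miRNAs whose human counterparts share chromosome 21 with miR-802 lie on chromosome 16 in the mouse as well. Mir99a, Mirlet7c-1 and Mir125b-2 lie 15.8, 15.8 and 15.7 Mb before Mir802, and Mir155 lies 8.66 Mb before it. Of 8 names all are in the table and 7 were tested, and 2 were higher, none lower, where 4.21% of all tested entries were higher. miR-155-5p, an immune miRNA that rises when T cells, B cells or macrophages are activated, had a log2 fold change of 1.30 (edgeR adjusted p = 0.0331), with 174.1, 145.2 and 200.1 CPM in MRL/lpr and 57.1, 102.3 and 50.9 CPM in C57BL/6. miR-125b-5p had a log2 fold change of 0.88 (edgeR adjusted p = 0.0451), with 884.6, 815.7 and 875.2 CPM in MRL/lpr and 355.0, 599.7 and 446.3 CPM in C57BL/6. Neither overlapped between the strains, with MRL/lpr above C57BL/6, as for 14% of all tested entries (28.8% in either direction). let-7c-1-3p did not overlap either, but was lower in MRL/lpr (4.66, 4.08 and 2.81 CPM, against 6.34, 4.98 and 5.76 CPM in C57BL/6).

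The other 5 members tested, miR-99a-5p, miR-99a-3p, let-7c-5p, let-7c-1-3p and miR-125b-2-3p, had log2 fold changes from -0.56 to 0.20 and did not pass, and the median of the 7 was -0.0020. miR-155-3p had 6 reads in all. Mature miR-125b-5p is also made from a hairpin on chromosome 9 and let-7c-5p from one on chromosome 15, so their reads cannot be assigned to chromosome 16. miR-155-5p missed the threshold in 7 and miR-125b-5p in 9 of 18 alternatives. In 7 alternatives 0 members of this list passed, among them the fits without MRL/lpr replicate 1, MRL/lpr replicate 3, C57BL/6 replicate 1 and C57BL/6 replicate 3.

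Likeness to miR-802-5p was measured as Pearson r of log2(CPM + 1) over the 6 libraries, among 178 other named miRNAs with a mean of at least 50 CPM. The groups of libraries set much of this value, so it is a description. The 5 highest were miR-708-5p (r = 0.989), miR-455-5p (r = 0.985), miR-29b-3p (r = 0.984), miR-32-5p (r = 0.966) and miR-204-5p (r = 0.966). Their mature sequences are shown with seeds in capitals, since 5 different seeds stand beside that of miR-802.
miR-708-5p: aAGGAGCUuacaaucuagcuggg
miR-455-5p: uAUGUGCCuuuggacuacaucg
miR-29b-3p: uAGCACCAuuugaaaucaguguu
miR-32-5p: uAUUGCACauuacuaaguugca
miR-204-5p: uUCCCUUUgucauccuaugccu

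These 5 are made from hairpins on chromosomes 7 (miR-708), 4 (miR-455 and miR-32), 1 and 6 (miR-29b) and 19 (miR-204), none of them on chromosome 16. miR-708-5p stood at 71.9, 65.0 and 75.3 CPM in MRL/lpr and at 34.6, 25.7 and 36.5 CPM in C57BL/6 (log2 fold change 1.13, edgeR adjusted p = 0.0197). miR-204-5p stood at 12868, 17048 and 14920 CPM in MRL/lpr and at 5836, 4277 and 5472 CPM in C57BL/6 (log2 fold change 1.52, edgeR adjusted p = 0.00141). In both, as in miR-802-5p, C57BL/6 replicate 2 was the lowest library, which follows in part from picking them by their high r. miR-204-5p passed in all 18 alternatives. miR-708-5p missed the threshold in 6 of 18, among them the fits without MRL/lpr replicate 1 or 3 and without C57BL/6 replicate 1 or 3 (edgeR adjusted p = 0.0580, 0.104, 0.0754 and 0.0774).

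miR-29b-3p, which represses collagen messenger RNAs, averaged 1530 ± 106.3 CPM in MRL/lpr and 993.8 ± 153.6 CPM in C57BL/6 (SD, n = 3 each; edgeR adjusted p = 0.0731). miR-455-5p averaged 87.1 ± 11.2 CPM in MRL/lpr and 46.1 ± 8.79 CPM in C57BL/6 (edgeR adjusted p = 0.0503). miR-32-5p, of the miR-25 and miR-92 seed family, averaged 236.8 ± 44.8 CPM in MRL/lpr and 126.8 ± 30.2 CPM in C57BL/6 (edgeR adjusted p = 0.0662). None of these 3 passed. Their groups did not overlap, with MRL/lpr above C57BL/6, as for 14% of all tested entries (28.8% in either direction). Because they were picked for likeness to miR-802-5p, whose groups do not overlap, this adds no support. Of the 5, miR-708-5p kept the highest r (0.923) and miR-204-5p the lowest (0.684) when each library was taken as its deviation from its group mean, a measure that gave 0.970 for miR-802-3p.

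The 3 lowest values of r belonged to miR-676-3p (r = -0.982), miR-23a-3p (r = -0.968) and miR-31-5p (r = -0.949). miR-676-3p stood at 47.9, 51.6 and 39.2 CPM in MRL/lpr and at 80.2, 107.2 and 84.9 CPM in C57BL/6 (log2 fold change -0.97, edgeR adjusted p = 0.0376). miR-31-5p, a miRNA of epithelia and T cells, stood at 43.9, 37.5 and 49.0 CPM in MRL/lpr and at 75.5, 96.9 and 74.3 CPM in C57BL/6 (log2 fold change -0.92, edgeR adjusted p = 0.0451). miR-23a-3p averaged 8060 ± 562.4 CPM in MRL/lpr and 11806 ± 2044 CPM in C57BL/6 (SD, n = 3 each) and did not pass (edgeR adjusted p = 0.0764). The calls of the lower pair depended on the fit: miR-676-3p missed the threshold in 8 and miR-31-5p in 11 of 18 alternatives, with log2 fold changes below 0 in each. With library size alone as the scaling the edgeR adjusted p was 0.0771 for miR-676-3p and 0.104 for miR-31-5p. Neither passed without MRL/lpr replicate 1 or 3 or without C57BL/6 replicate 1 or 3, and miR-31-5p did not pass without MRL/lpr replicate 2 either. Each of the 3 was highest in C57BL/6 replicate 2, where miR-802-5p was lowest, which follows in part from picking them by their low r.

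**Figure D5:**
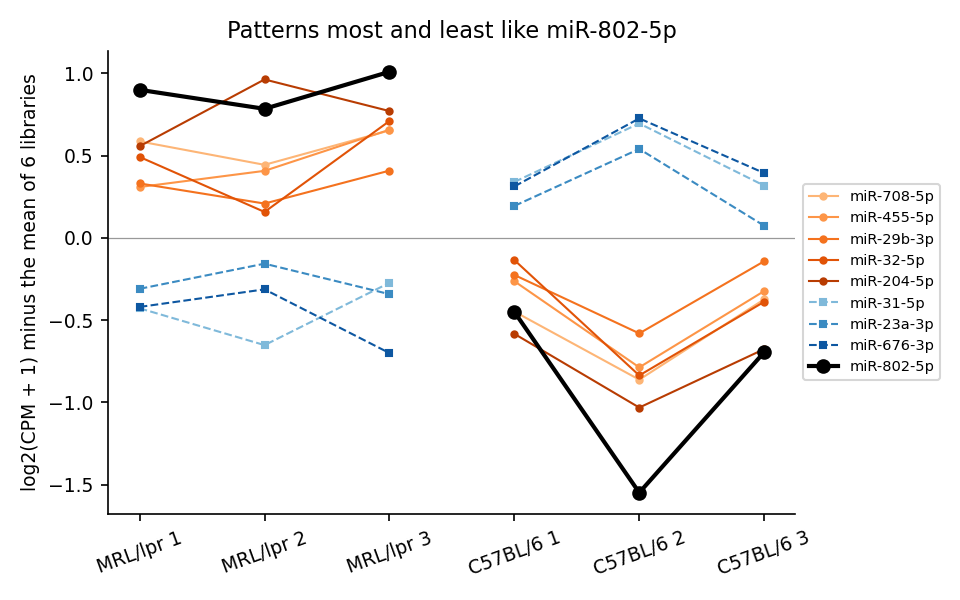
Log2(CPM + 1) of miR-802-5p (black), the 5 miRNAs with the highest r to it (orange) and the 3 with the lowest (blue, dashed) in each library, minus the mean of the 6 libraries; lines join libraries of 1 strain as a guide and carry no order. miR-802-5p and the 5 lie above 0 in all MRL/lpr libraries and below 0 in all C57BL/6 libraries, and the 3 lie the other way round.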

How the data were processed

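Per the labels' protocols, TRIzol RNA from kidney went through adapter ligation, PCR and size selection on gels, and the libraries were sequenced as DNA nanoballs. The authors deposited raw counts, 1 whole number per mature miRNA and library, without normalization. Bowtie2, DESeq2 and GRCm38.p6 appear in the submitters' processing notes. Not given in the sources used here are the miRNA annotation, how reads with several matches were counted, strand, and any molecular identifiers. Intervals on counts therefore cover counting error only.

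The C57BL/6 columns were matched to samples by group letter, age and replicate number. The MRL/lpr columns carry the letters LN, which are not in the labels; they were matched by age and replicate number as the columns of the only other group. Library totals were 5259528 to 6773829 counts; no library was a copy of another (chi-square per degree of freedom at least 123 within groups). Of 1542 entries, 1190 have miRBase names and 352 are the authors' predictions. Counts were fitted in R 4.3.3 with edgeR 4.0.16 (filterByExpr with minimum count 10 and minimum total 15, TMM, robust quasi-likelihood, group as the only term; Benjamini-Hochberg over 451 entries, threshold 0.05; biological coefficient of variation 35.1%). The standard error of a fold change is the coefficient over the root of its F statistic. Arm balance was tested with limma 3.58.1 on log2 ratios after adding 1 CPM. Single values were compared by exact permutation over libraries. The tests were tried on simulated counts. Sequences, the position of Mir802 and the chromosomes of mature miRNAs are from RefSeq (GRCm38.p6), in which 996 of the 1190 named entries had a mature sequence. Positions of the other genes and the transcripts searched are from GENCODE M21 on the same build. Folds were made with RNAfold 2.7.2 and figures with matplotlib 3.10.9.

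The members, lists, tests and alternatives were chosen with earlier results of these data known. Besides the arms of miR-802, the rule for naming took the members of the kidney epithelium, chromosome 21, liver and pancreas lists, members of other lists that passed, the 5 highest and 3 lowest correlations, and any miRNA with the same seed (there was none). Single leukocyte members that did not pass were described outside this rule, to show what makes up their sum. Alternatives covered scaling (library size alone, RLE, upper quartile, the kidney epithelium list, or TMM with the 10 most abundant entries left out), no filter or 10 CPM in 3 libraries, DESeq2 1.42.0, limma-voom, no robust dispersion, named entries only, both arms added, a block for replicate number, other denominators and pseudocounts, and each library left out.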

Additional observations from a re-analysis of the deposited data

How the results depend on the processing

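Both arms of miR-802 had log2 fold changes above 0 under every alternative run. For 5p they were 1.51 to 1.93 (19 alternatives, counting the fit with both arms added, edgeR adjusted p from 1.93e-07 with no filter to 0.0643). For 3p they were 1.30 to 1.71 (18 alternatives, adjusted p from 7.40e-05 with DESeq2 to 0.0759 with edgeR). The exceptions to passing were the fits without MRL/lpr replicate 3 (both arms) and without C57BL/6 replicate 3 (3p), and why they missed was not tested. Without MRL/lpr replicate 3 the whole table held 5 calls. DESeq2 gave adjusted p of 4.06e-07 for 5p. With each library left out in turn, log2 fold changes ran from 1.51 to 1.93 for 5p and from 1.30 to 1.71 for 3p. The arm balance did not pass in any of 11 alternatives (log2 difference 0.22 to 0.38), and the log2 difference of miR-802-5p relative to the kidney epithelium list stayed between 1.48 and 1.79 in 9. The number of entries past the threshold was 28 in the fit reported, 64 with no filter, 51 with DESeq2, 14 when scaled to the kidney epithelium list, and from 5 to 54 with a library left out; the cause was not tested. The chromosome 21 list had 1 member past the threshold with limma-voom, 0 when scaled to the kidney epithelium list, 0 without robust dispersion, and from 0 to 2 with a library left out. The kidney epithelium list kept 1 member past the threshold in all 18 alternatives.

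The replicate numbers of the strains were not treated as pairs: deviations of same-numbered libraries from their group means had correlations of -0.37, 0.034 and -0.37. With the replicate number as a block both arms passed (log2 fold change 1.81 for 5p and 1.58 for 3p, edgeR adjusted p = 0.0380 for each), 13 entries passed in all, the chromosome 21 list had 0 members past the threshold, and the arm balance had an adjusted p of 0.534. The 3p arm had 68 to 396 reads per library, and how far these counts limit the shift in arm balance that can be seen was not tested.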

Other observations

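In C57BL/6 kidneys the ratio of miR-802-5p to the tubular miRNA miR-192-5p varied less than the level of miR-802-5p. Per 1000 miR-192-5p reads, miR-802-5p had 6.69, 5.09 and 6.66 reads in MRL/lpr and 1.96, 1.89 and 1.99 reads in C57BL/6. The highest C57BL/6 library was 1.05 times the lowest by this ratio, the smallest span among the 9 kidney members tested (up to 2.82 times, for miR-200c-3p). The miR-802-5p CPM itself spanned 2.18 times over the 3 C57BL/6 libraries. Without C57BL/6 replicate 2, its lowest library, it spanned 1.19 times, which is over fewer libraries than the other spans. In MRL/lpr the order differed: the ratio to miR-192-5p spanned 1.31 times, and the ratio to miR-200b-3p, with 27.0, 28.4 and 26.6 reads per 1000, spanned 1.07 times, the smallest of the 9. The member with the smallest span was picked out after the values were seen, over 3 libraries per strain, and was not tested.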
